A study of Rattus norvegicus with 12 samples.

Results

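Glycolysis is the chain of enzymes that splits glucose into pyruvate, and the transcripts of its enzymes were followed here in the rat colon carcinoma line CC531. Of 10 chosen enzyme genes, 8 (Hk1, Hk2, Pfkm, Pfkl, Aldoa, Pgam1, Pkm and Ldhb) had at least 1 probe set, a group of short probes read as 1 value, that the array annotation assigns to that gene alone, among 4737 genes so represented. They held 17 of the 8799 probe sets, of which 3 were control probe sets for Hk1 and 14 were among the 6118 bright enough to test. Ldha and Tpi1 were represented only by probe sets that name several genes, so no value is given for them. Each of the 12 arrays measured total RNA of CC531 cells. Untreated cells were measured at 2 and 24 h, cells given 4.5 mM butyrate at 2, 6, 12, 16 and 24 h, and cells given 3 mM aspirin at the same 5 times, with 1 array for each treatment and hour. All groups are the same established line, which grew from a rat colon tumour and stands for tumour cells without their tissue.

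Hexokinase traps glucose in the cell by phosphorylation, phosphofructokinase commits it to the pathway, and pyruvate kinase makes pyruvate and ATP at its end, after which lactate dehydrogenase interconverts pyruvate and lactate. Tumour cells commonly run this pathway fast even with oxygen present. Colon epithelium draws much of its energy from oxidising butyrate, which bacteria in the gut release when they ferment fibre and which also inhibits histone deacetylases, whereas aspirin inhibits the cyclooxygenases that make prostaglandins.

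Intensities are the deposited linear values. The floor was set at an intensity of 90.91 (log2 6.51), lower values were raised to it, and values at the floor have no order among themselves. The mean of each array after trimming 2% from both ends lay between 1001.52 and 1002.08, so the arrays had been scaled alike. Their bright ends differed, with a 99th percentile of 18860 to 21070 on the butyrate arrays, 22960 and 23960 on the untreated and 21450 to 27210 on the aspirin arrays. Among the 14 of 20 listed epithelial marker genes on the array, Epcam (8230 to 16900), Krt8 (12200 to 16000) and Krt18 (13600 to 21400) were bright on every array, while the colon transcription factor gene Cdx1 and the enterocyte gene Fabp1 were at the floor on all 12. The labels name no separate cultures, so each p-value reflects only the spread among the arrays of its fit, which may be technical. Against untreated these are all 12, with the 5 hours of a treatment standing in for replicates, so that spread also holds changes over time. The other fits use the 10 treated arrays. The small number of arrays limits precision.

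The upstream sequences of 4 enzymes are shown, those of Pfkm and Pgam1, called against untreated, of Ldhb, with a called slope, and of Pkm, called against aspirin. RefSeq (build GRCr8) held 11 upstream windows for the 8 genes. Each of the windows printed runs over the 250 bases before the annotated start, 5′ to 3′ on the gene's strand, and capitals mark exact matches on either strand to ACGTG or GCGTG, the core letters of hypoxia response elements, or to GGGCGG, the GC box. The windows of Pfkm (chr7:131113849-131114098, plus strand), Ldhb (chr4:177177409-177177658, minus strand), Pgam1 (chr1:250672902-250673151, plus strand) and Pkm (chr8:68953385-68953634, plus strand) read as follows.
Pfkm: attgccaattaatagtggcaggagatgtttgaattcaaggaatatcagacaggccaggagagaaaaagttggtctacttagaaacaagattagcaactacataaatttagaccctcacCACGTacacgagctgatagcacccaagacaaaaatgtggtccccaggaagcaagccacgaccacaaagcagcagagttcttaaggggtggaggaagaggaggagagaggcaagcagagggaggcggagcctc
Ldhb: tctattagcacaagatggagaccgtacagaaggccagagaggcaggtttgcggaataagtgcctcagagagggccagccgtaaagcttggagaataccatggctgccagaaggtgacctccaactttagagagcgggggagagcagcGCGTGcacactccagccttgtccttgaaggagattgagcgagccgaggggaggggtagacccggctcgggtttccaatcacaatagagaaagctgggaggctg
Pgam1: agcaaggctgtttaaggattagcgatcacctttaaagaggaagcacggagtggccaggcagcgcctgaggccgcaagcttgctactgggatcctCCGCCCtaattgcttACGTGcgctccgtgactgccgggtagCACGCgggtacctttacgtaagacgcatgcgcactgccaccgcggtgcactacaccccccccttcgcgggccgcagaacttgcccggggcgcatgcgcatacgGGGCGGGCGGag
Pkm: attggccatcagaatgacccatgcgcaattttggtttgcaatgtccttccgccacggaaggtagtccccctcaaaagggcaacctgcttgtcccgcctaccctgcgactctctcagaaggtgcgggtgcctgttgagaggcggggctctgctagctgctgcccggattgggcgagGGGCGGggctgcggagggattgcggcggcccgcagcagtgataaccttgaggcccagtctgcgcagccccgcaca
The full E-box CACGTG, a palindrome that contains ACGTG and is bound by Myc and Max, was found in 0 of the 11 windows, against 5.59% of 33469 windows of all genes. ACGTG was found in 4 of the 11 (16.6% of all), GCGTG in 3 (25.9%) and GGGCGG in 5 (30.5%), while 4 windows, those of Hk2, of 1 of the Hk1 starts and of 2 of the Aldoa starts, held none of these letters. GGGCGG occurred 3 times in the Pgam1 window, overlapping at its end, and once in that of Pkm, but in neither the Pfkm nor the Ldhb window. These matches describe letters in a window and are no evidence of binding.

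Butyrate was first set against untreated cells to ask which enzymes shifted with the fatty acid over its 5 hours. The muscle-type phosphofructokinase Pfkm rose 2.15- and 2.87-fold on its 2 probe sets, and phosphoglycerate mutase Pgam1, which moves the phosphate of 3-phosphoglycerate towards enolase, fell on 1 of its 3. These were the 3 of 14 probe sets with a limma adjusted p under 0.05 (Benjamini-Hochberg over all 6118), where 11.7% of all tested probe sets passed (7.78% higher and 3.92% lower). Another 5 had an unadjusted p under 0.05 (28.8% of all had one), those of Hk1 (2), Pkm and the other Pgam1 probe sets. On 7 of the 14 the 5 butyrate arrays lay wholly above or below both untreated arrays (3 above, 4 below), and 27.8% of all probe sets were separated in this way (14.7% above, 13.2% below). The median difference over the 14 was -0.22 on the log2 scale, against 0.00 over all. In bulk RNA, fewer cells of a kind and less RNA per cell cannot be told apart.

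**Figure D1:**
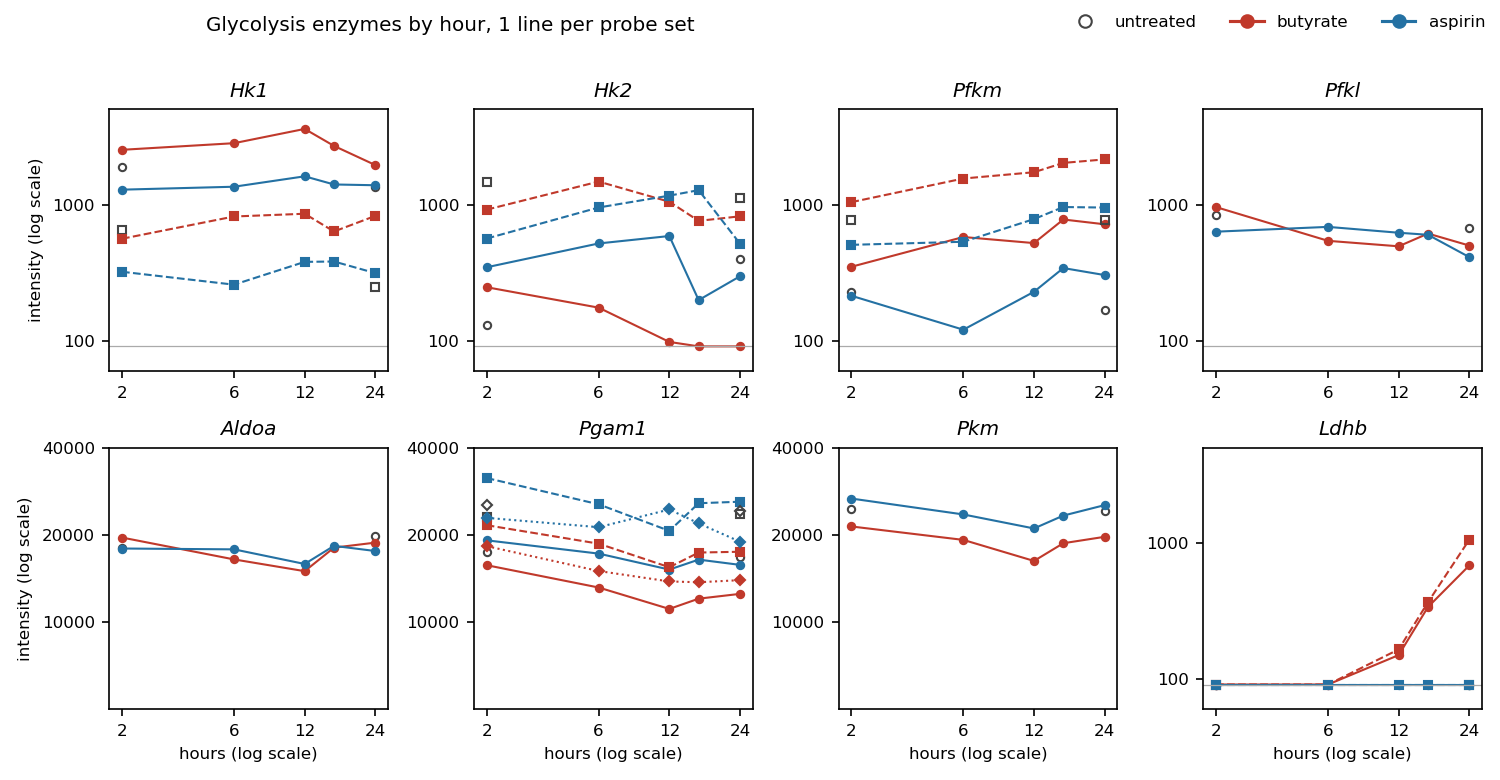
Intensity (log scale) against hours of treatment (log scale) for the 14 tested probe sets of 8 enzyme genes, 1 line style and marker per probe set. Open symbols are untreated, red butyrate and blue aspirin arrays, each point is 1 array, and the grey line is the floor of 90.91. The butyrate lines of Pfkm climb above the rest, those of Pgam1 and Pkm lie below the untreated and most aspirin symbols of the same probe set, and Ldhb leaves the floor from 12 h of butyrate while its untreated and aspirin arrays stay on it, their symbols overlying each other.

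At the first step of the pathway, Hk1, the hexokinase that most tissues use, had 2 tested probe sets. The first (rc_AI012593_at) read 1875 and 1346 on the untreated arrays at 2 and 24 h, 2525, 2824, 3594, 2697 and 1950 with butyrate at 2, 6, 12, 16 and 24 h, and 1287, 1352, 1613, 1405 and 1387 with aspirin. All 5 butyrate arrays were above both untreated and all 5 aspirin arrays, with the peak at 12 h. Its difference from untreated was 0.75 ± 0.23 (log2, ± SE here and below), with a 95% interval of 0.25 to 1.24 and a limma adjusted p of 0.0511, just outside the threshold (0.0417 without the 2 h and 0.0294 without the 24 h butyrate array). The second (U27319exon_at) read 652 and 248 untreated, 561, 818, 856, 634 and 826 with butyrate and 321, 258, 380, 382 and 314 with aspirin. Here the 2 h untreated array lay within the butyrate range and the 24 h one below it, and the difference of 0.86 ± 0.36 had a limma adjusted p of 0.138. Leaving out the untreated array of 2 h made it 1.56 (adjusted p = 0.0239).

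The untreated arrays themselves differed at Hk1. The 24 h minus the 2 h array was -1.40 on U27319exon_at and -0.48 on rc_AI012593_at (log2), each a single pair without a test. The 3 control probe sets for Hk1 target different stretches of its transcript and were not among the 6118. The 3′ one read 630 and 202 untreated, 385, 458, 519, 420 and 480 with butyrate and 104, 151, 162, 161 and 181 with aspirin. The 24 h minus the 2 h untreated array was -1.64, -1.66 and -1.57 at the 3′, 5′ and middle control (log2). Added to the test after the data had been seen, they gave 0.34 ± 0.39, -0.10 ± 0.35 and -0.27 ± 0.63 for butyrate against untreated (3′, 5′ and middle, limma adjusted p = 0.629, 0.885 and 0.831), so the 3′ control had the sign of the other Hk1 probe sets, the 5′ and middle controls the opposite one, and none was called. The ratio of the 3′ to the 5′ control varied between 1.12 and 4.27 over the arrays. The 4.27, at 12 h of aspirin, had a 5′ value of 38.1, under the floor, and the next highest, 3.45 at 12 h of butyrate, one of 151. The same ratio ran from 1.05 to 1.31 for the Gapdh and from 0.962 to 1.55 for the beta-actin controls. The part of the Hk1 ratio in the Hk1 differences was not tested.

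Hk2, the insulin-sensitive hexokinase often abundant in tumours, had 2 probe sets that disagreed. D26393exon_s_at read 130 and 399 untreated, 247, 175, 98.0, 39.2 and 25.2 with butyrate and 346, 518, 588, 199 and 298 with aspirin. The butyrate arrays were lower at each hour up to 12 h and at the floor at 16 and 24 h. The 24 h untreated array was 1.62 above the 2 h one (log2), and the difference of -0.83 ± 0.54 did not pass (limma adjusted p = 0.341). M68971_at read 1464 and 1118 untreated, 918, 1475, 1049, 759 and 820 with butyrate and 563, 952, 1163, 1276 and 516 with aspirin, with all groups overlapping. Its difference from untreated was -0.39 ± 0.38 (interval -1.20 to 0.42, limma adjusted p = 0.558).

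At the committed step, Pfkm gave the clearest rise of the pathway. U25651_at read 765 and 768 untreated, 1042, 1554, 1728, 2023 and 2147 with butyrate, and 506, 533, 782, 959 and 951 with aspirin. Every butyrate array was above both untreated arrays, and the later the array the higher it read. On D21869_s_at the values were 230 and 169 untreated, 349, 578, 521, 777 and 717 with butyrate and 214, 121, 229, 342 and 304 with aspirin. The butyrate arrays were again all above the rest, with 24 h just below 16 h. Against untreated the differences were 1.10 ± 0.33 (2.15-fold, interval 0.39 to 1.82, limma adjusted p = 0.0467) and 1.52 ± 0.42 (2.87-fold, 0.62 to 2.43, 0.0348). With both probe sets averaged the difference was 1.31 ± 0.36 (limma adjusted p = 0.0332).

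These Pfkm calls rested on few arrays. With 1 array left out at a time, D21869_s_at stayed called in 5 of 12 fits (adjusted p 0.0114 to 0.188) and was lost without either untreated array, without any butyrate array from 6 h on and without the 12 h aspirin array. U25651_at stayed called in 2 of 12, those without the 2 h butyrate or the 2 h aspirin array, and reached 0.176 without the 2 h untreated array. Its call was also lost after quantile normalization (1.01, limma adjusted p = 0.0585) and after centring each array on its median (0.92, 0.052). Both Pfkm calls were lost with time as a factor (limma adjusted p = 0.0809 for D21869_s_at and 0.0868 for U25651_at), without the filter (0.0763 and 0.0911) and in a fit limited to 2 and 24 h, blocked by hour (0.539 and 0.566), with differences of 0.96 to 1.52.

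The liver-type subunit Pfkl did not share this course. X58865mRNA_at read 843 and 674 untreated, 958, 542, 494, 613 and 500 with butyrate and 632, 686, 621, 600 and 411 with aspirin. The 2 h butyrate array was the highest of all, the later ones were below both untreated arrays, and the difference was -0.33 ± 0.32 (interval -1.01 to 0.36, limma adjusted p = 0.561). Taken as changes from the untreated mean, the change of Pfkl minus that of Pfkm (U25651_at) was -0.10, -1.50, -1.78, -1.70 and -2.08 with butyrate at 2, 6, 12, 16 and 24 h. With aspirin it was 0.35, 0.39, -0.31, -0.65 and -1.18, so it was above 0 at 2 and 6 h of aspirin and below 0 from 12 h on, and it was lower with butyrate than with aspirin at each hour. This pair is given without a test. The same measure for Hk2 minus Hk1 (M68971_at and rc_AI012593_at) was below 0 at every hour of butyrate, between -1.52 and -0.62, and between -1.11 and 0.17 with aspirin.

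Aldolase A, Aldoa, which splits fructose bisphosphate into 2 triose phosphates, stayed near its untreated level. It read 17963 and 19770 untreated, 19555, 16435, 14968, 18046 and 18782 with butyrate and 17922, 17803, 15850, 18303 and 17568 with aspirin, with the 12 h array lowest in both treatments. Its difference was -0.11 ± 0.12 with an interval of -0.37 to 0.15 (limma adjusted p = 0.614).

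Pgam1 was the enzyme lowest with butyrate among the bright ones. On S63233_g_at the arrays read 25260 and 24177 untreated, 18265, 14985, 13793, 13707 and 13935 with butyrate and 22872, 21234, 24443, 21889 and 18920 with aspirin. All butyrate arrays were below all others, and from 12 h on they were level. The difference was -0.74 ± 0.13 (1.66-fold lower, limma adjusted p = 0.00535), and it stayed called in each of the 12 fits that left out an array (adjusted p 0.000543 to 0.0445) and after both other scalings. On S63233_at the values were 23011 and 23532 untreated, 21572, 18626, 15445, 17358 and 17466 with butyrate and 31386, 25468, 20621, 25687 and 26002 with aspirin. On rc_AI169417_s_at they were 17434 and 16697 untreated, 15696, 13144, 11086, 12029 and 12496 with butyrate and 19129, 17211, 15158, 16409 and 15736 with aspirin. Both lay below untreated on every butyrate array, at -0.37 ± 0.15 and -0.41 ± 0.14, without passing (limma adjusted p = 0.125 and 0.0673). Averaged over its 3 probe sets, Pgam1 differed by -0.51 ± 0.13 (limma adjusted p = 0.0223).

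Pyruvate kinase, Pkm, which makes the pyruvate and an ATP at the last step, read 24481 and 24133 untreated, 21358, 19193, 16235, 18692 and 19670 with butyrate and 26663, 23497, 21020, 23285 and 25305 with aspirin. All butyrate arrays were below both untreated arrays, with the 12 h array lowest. The difference of -0.36 ± 0.12 did not pass (interval -0.62 to -0.10, limma adjusted p = 0.0727).

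Many bright probe sets shared this direction. Of the 319 probe sets with a mean intensity of 10000 or more, a limit chosen after the data were seen, 80.9% were lower with butyrate than untreated, their median difference was -0.18, and 8.78% were called lower and 2.51% higher. The share of this common shift in the values of Pgam1 and Pkm was not tested. After quantile normalization, which gives all arrays the same distribution, the median of the bright probe sets was 0.00 and the differences were -0.57 for Pgam1 on S63233_g_at (limma adjusted p = 0.024), -0.26 and -0.18 on the other Pgam1 probe sets and -0.15 for Pkm.

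Lactate dehydrogenase B, Ldhb, the subunit that prevails in tissues that oxidise lactate, appeared late. On U07181_at the untreated arrays read 37.5 and 66.9 and the aspirin arrays -3.4, 34.3, 25.4, -18.6 and -8.3, all under the floor. The butyrate arrays read 46.5 and 59.4 at 2 and 6 h, also under the floor, and then 150, 337 and 681 at 12, 16 and 24 h. On U07181_g_at the untreated arrays read -18.4 and -29.2, the aspirin arrays -59.2, 6.0, 21.5, 4.8 and -17.4, and the butyrate arrays -11.6, 42.0, 165, 366 and 1053. Both probe sets thus left the floor at 12 h of butyrate and were highest at 24 h, where they were at least 7.49-fold and 11.6-fold above it. Averaged over all 5 hours, the differences from untreated of 1.10 ± 0.59 and 1.28 ± 0.70 did not pass (limma adjusted p = 0.242 and 0.25), and with the untreated arrays at the floor they depend on where it is set.

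**Figure D2:**
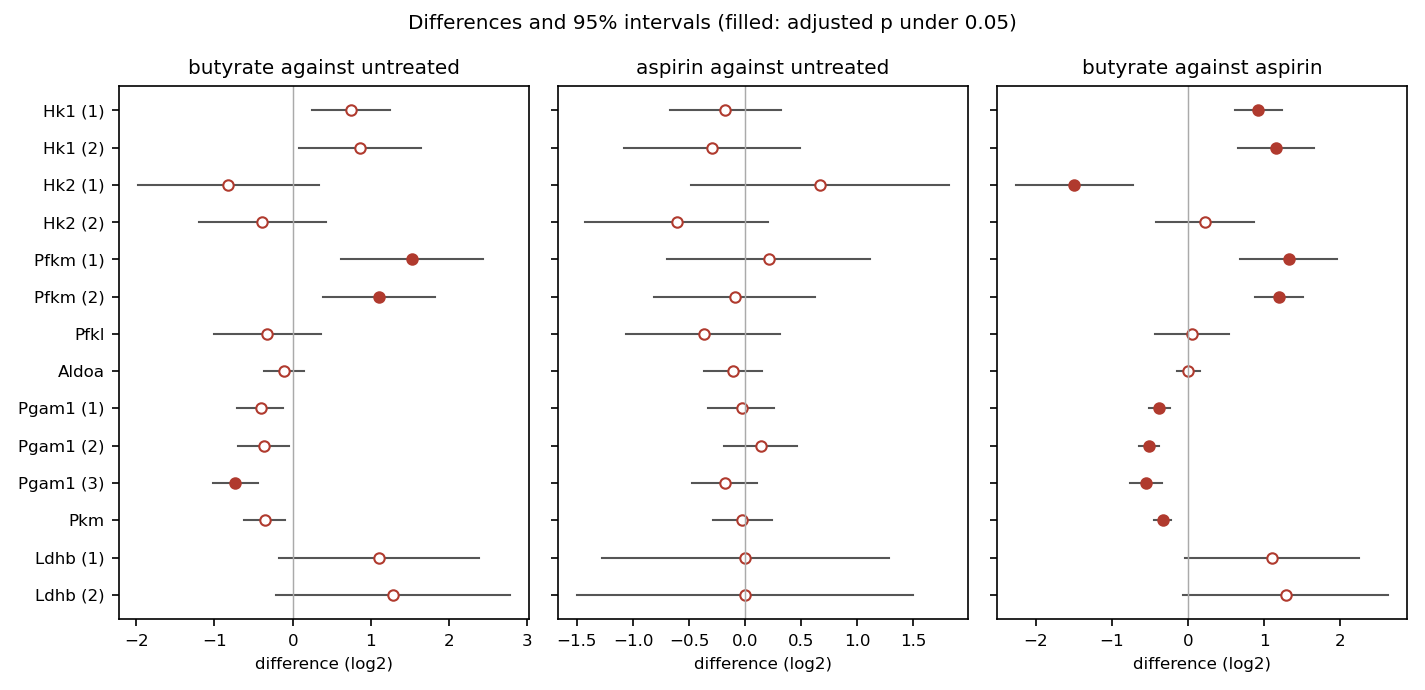
Differences in log2 intensity with 95% intervals for the 14 tested probe sets, in 3 panels: butyrate minus untreated, aspirin minus untreated and butyrate minus aspirin. Numbers in brackets tell probe sets of a gene apart, in the order rc_AI012593_at and U27319exon_at (Hk1), D26393exon_s_at and M68971_at (Hk2), D21869_s_at and U25651_at (Pfkm), rc_AI169417_s_at, S63233_at and S63233_g_at (Pgam1) and U07181_at and U07181_g_at (Ldhb). Filled points have a limma adjusted p under 0.05, which 3, 0 and 9 of the 14 reach.

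The course over time was read as a slope, the change in log2 intensity per doubling of the hours, fitted to the 10 treated arrays. With butyrate 3 of the 14 slopes were called, all rising (8.99% of all tested slopes were called, 4.79% rising). Pfkm rose by 0.29 ± 0.06 per doubling on U25651_at (limma adjusted p = 0.0276) and read 0.29 ± 0.15 on D21869_s_at (adjusted p = 0.273). Ldhb rose by 0.77 ± 0.17 and 0.90 ± 0.21 (limma adjusted p = 0.0321 and 0.0353), with its 2 and 6 h arrays at the floor. Both Ldhb probe sets were also at the floor on all untreated and aspirin arrays. They passed the filter (mean log2 of 6.54) only through the butyrate arrays from 12 h on. The values that make these slopes thus also selected the probe sets for testing, which limits what their p-values can show. Another 4 slopes, all below 0, had an unadjusted p under 0.05, as 24.1% of all slopes did: Hk2 on D26393exon_s_at (-0.45), Pfkl (-0.23) and Pgam1 on rc_AI169417_s_at (-0.11) and S63233_g_at (-0.12).

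With aspirin no slope of the 14 was called by limma, 1 had an unadjusted p under 0.05 (19.7% of all had one), and 1.65% of all slopes were called. That slope was Pfkm on U25651_at, which read 0.29 ± 0.06 per doubling (limma adjusted p = 0.0599). The difference between the treatments' slopes at this probe set was 0.00, with an interval of -0.20 to 0.20. For Ldhb the slope differences were 0.77 ± 0.24 and 0.90 ± 0.29 (limma adjusted p = 0.146 and 0.155), with no call. Without the 2 h butyrate array they were 1.46 and 1.74 and were called (0.039 and 0.0455). These 2 were the only ones of the 14 with an unadjusted p under 0.05 for the difference (18.2% of all had one), none was called by limma, and 1.73% of all probe sets were (1.05% with the lower slope under butyrate).

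The slope calls depended on single arrays. Without the 2 h butyrate array the Pfkm slope was 0.24 (limma adjusted p = 0.42), and its call was also lost without the 16 h (0.0793) or 24 h butyrate array (0.091) and after median centring (0.25, 0.0591). Without the 24 h butyrate array the Ldhb slopes were 0.53 and 0.58 (adjusted p = 0.125 and 0.112), and without the 2 h butyrate array 1.46 and 1.74, still called (0.0209 and 0.0237). The Ldhb calls were also lost without the 16 h butyrate array (0.0881 on both) and without any one of the aspirin arrays (0.0522 to 0.0617 and 0.0559 to 0.0658), and U07181_g_at was lost without the 6 h butyrate array as well (0.051). With the floor raised to 182.2 the Ldhb slopes were 0.44 and 0.57 and not called (limma adjusted p = 0.151 and 0.167), nor were they without the filter (0.0751 and 0.0827). With the floor lowered to 4.2 U07181_at was not called either (1.08, 0.187), while U07181_g_at was.

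Aspirin was set against untreated cells in the same way, with the same 2 untreated arrays. No enzyme differed by the test: 0 of 14 probe sets were called by limma and 0 had an unadjusted p under 0.05, where 0.147% (0.0817% higher) and 10.7% of all probe sets did. The smallest adjusted p was 0.596, for Hk2 on M68971_at, at -0.61 ± 0.38. The differences of Pfkm were 0.21 ± 0.42 and -0.09 ± 0.33, that of Pfkl -0.37 ± 0.32, that of Aldoa -0.11 ± 0.12 and that of Pkm -0.03 ± 0.12. Pgam1 read 0.14 ± 0.15, -0.03 ± 0.14 and -0.18 ± 0.13. Intervals were narrow for the bright enzymes (Pkm -0.29 to 0.24) and wide for the dim ones (Pfkm on D21869_s_at -0.70 to 1.11). The untreated and aspirin arrays overlapped on each of the 14, while 11.6% of all probe sets were separated (3.81% higher with aspirin).

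At the Hk1 control probe sets aspirin read -1.26 ± 0.39, -1.11 ± 0.35 and -1.22 ± 0.63 against untreated (3′, 5′ and middle, limma adjusted p = 0.358, 0.358 and 0.514). The untreated pair at these probe sets spans more than that, as given above.

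Butyrate and aspirin were then compared hour by hour, which needs no untreated array, with the hour as a block. With this block, leaving out 1 array also takes its partner of that hour out of the difference. The fits without the butyrate and without the aspirin array of an hour give the same difference and are not separate checks. Of the 14 probe sets 9 were called by limma, 4 higher and 5 lower with butyrate, where 25.2% of all tested probe sets were called (15.6% higher and 9.61% lower) and 40.5% had an unadjusted p under 0.05. The arrays of both treatments were separated on 5 of the 14 (4 higher, 1 lower), against 15.6% of all (10.3% higher, 5.3% lower). Hk1 and Pfkm were higher with butyrate on both of their probe sets, Pgam1 was lower on all 3, Pkm was lower, and Hk2 was lower on 1 of 2. The comparison with untreated uses the same butyrate arrays, so both sets of differences share that source.

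Hk1 was 0.92 ± 0.13 higher with butyrate than with aspirin on rc_AI012593_at and 1.15 ± 0.21 on U27319exon_at (limma adjusted p = 0.00851 and 0.0152), 1.90- and 2.23-fold. By hour the first differed by 0.97, 1.06, 1.16, 0.94 and 0.49 at 2, 6, 12, 16 and 24 h, already apart at 2 h and least at 24 h. The control probe sets gave 1.59 ± 0.17, 1.01 ± 0.13 and 0.95 ± 0.50 (3′, 5′ and middle, limma adjusted p = 0.00556, 0.00795 and 0.212), in the same direction, the 5′ one with 2 aspirin arrays at the floor. Leaving out either 16 h array took rc_AI012593_at to an adjusted p of 0.0517 or 0.0518, and U27319exon_at stayed called only when a 2 h array was left out (highest adjusted p 0.0654).

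Pfkm was 1.20 ± 0.13 higher on U25651_at (2.29-fold, limma adjusted p = 0.00564), with hourly differences of 1.04, 1.54, 1.14, 1.08 and 1.18. The distance between the treatments was thus 1.04 at 2 h and 1.18 at 24 h, and largest at 6 h. This call held in all 21 alternatives, including each array left out and both other scalings (0.89 to 1.23, adjusted p 0.0013 to 0.0419). On D21869_s_at the hourly differences were 0.71, 2.26, 1.19, 1.18 and 1.24, largest at 6 h. Their mean of 1.32 ± 0.26 was called (limma adjusted p = 0.02), and the call was lost when any array of 12, 16 or 24 h was left out (highest adjusted p 0.0728). Pfkl differed by 0.05 ± 0.20, with an interval of -0.44 to 0.54 (limma adjusted p = 0.88), and by -0.23 and -0.26 under quantile normalization and median centring.

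Hk2 on D26393exon_s_at was lower with butyrate, at -1.50 ± 0.31 (limma adjusted p = 0.0225), with its 16 and 24 h butyrate arrays at the floor and the groups overlapping at the 16 h aspirin array. It stayed called in 2 of the 10 fits that left out an array, those without a 2 h array (highest adjusted p 0.0827). On M68971_at the difference was 0.22 ± 0.26 (interval -0.42 to 0.86, limma adjusted p = 0.555), so the 2 probe sets of Hk2 disagreed here too. Averaged, they gave -0.64 ± 0.25 (adjusted p = 0.105).

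Pgam1 and Pkm were lower with butyrate than with aspirin. Pgam1 differed by -0.51 ± 0.05 on S63233_at, -0.55 ± 0.09 on S63233_g_at and -0.38 ± 0.06 on rc_AI169417_s_at (limma adjusted p = 0.0056, 0.0111 and 0.00999), and Pkm by -0.33 ± 0.05 (adjusted p = 0.00949). Aldoa differed by 0.00 with an interval of -0.15 to 0.15. Of the 319 bright probe sets, 82.1% were lower with butyrate, with a median of -0.22, and 45.8% were called lower and 3.13% higher, so Pkm and Pgam1 stood among many. How much of their difference is the shift common to bright probe sets was not tested.

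**Figure D3:**
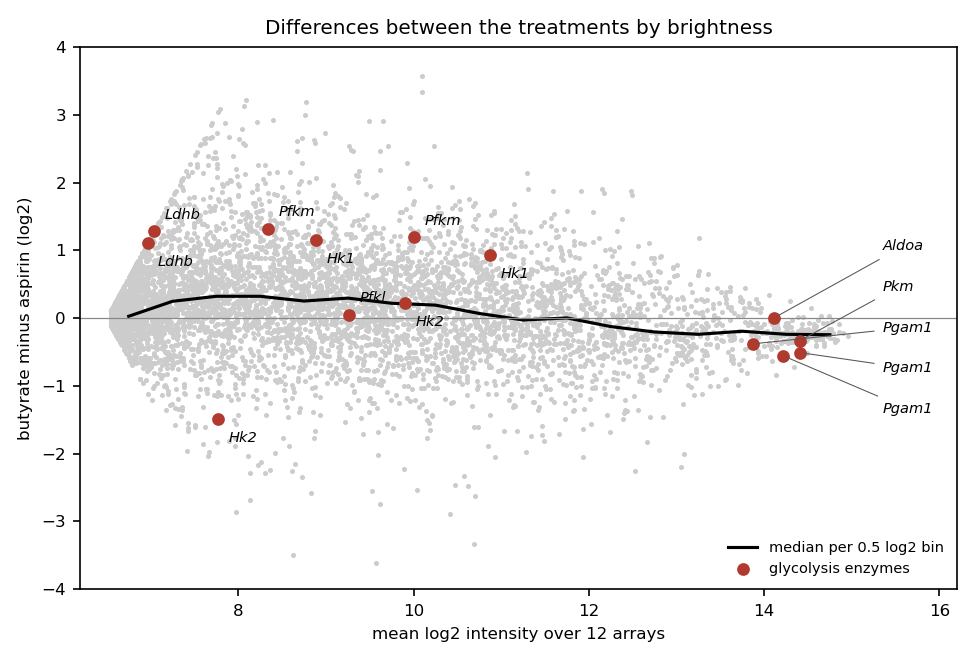
Difference between butyrate and aspirin (log2, vertical) against mean log2 intensity over the 12 arrays (horizontal) for the 6118 tested probe sets (grey), with the 14 of the glycolysis enzymes in red and the median of each brightness bin as a black line. The median line is above 0 for dim and below 0 for bright probe sets, where Pgam1, Pkm and Aldoa lie, while Hk1 and Pfkm are above the line.

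The scaling of the arrays decided several of these calls. After quantile normalization S63233_at of Pgam1 stayed called (-0.28, limma adjusted p = 0.0264), the other Pgam1 probe sets did not (-0.37 and -0.21, adjusted p = 0.0649 and 0.0623), nor did Pkm (-0.10, 0.248). Median centring took Pkm to -0.64 (limma adjusted p = 0.0021) and Aldoa to -0.31, and quantile normalization took Aldoa to 0.20. Over all tested probe sets the median difference was 0.10 as deposited, -0.02 after quantile normalization and -0.21 after median centring, and 61.8%, 52.3% and 27.3% of the called probe sets were higher with butyrate. For butyrate against untreated the medians were 0.00, -0.04 and -0.19, and the shares 66.5%, 59.1% and 45.8%. Hk1 and Pfkm were higher with butyrate than with aspirin, and called, under each of the 3 scalings. Leaving out the 16 h butyrate array took Pkm to an adjusted p of 0.0505. The call of rc_AI169417_s_at was lost without the 12 h aspirin or a 16 h array (highest adjusted p 0.053), and that of S63233_g_at without a 6 h or a 16 h array (0.0592).

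**Figure D4:**
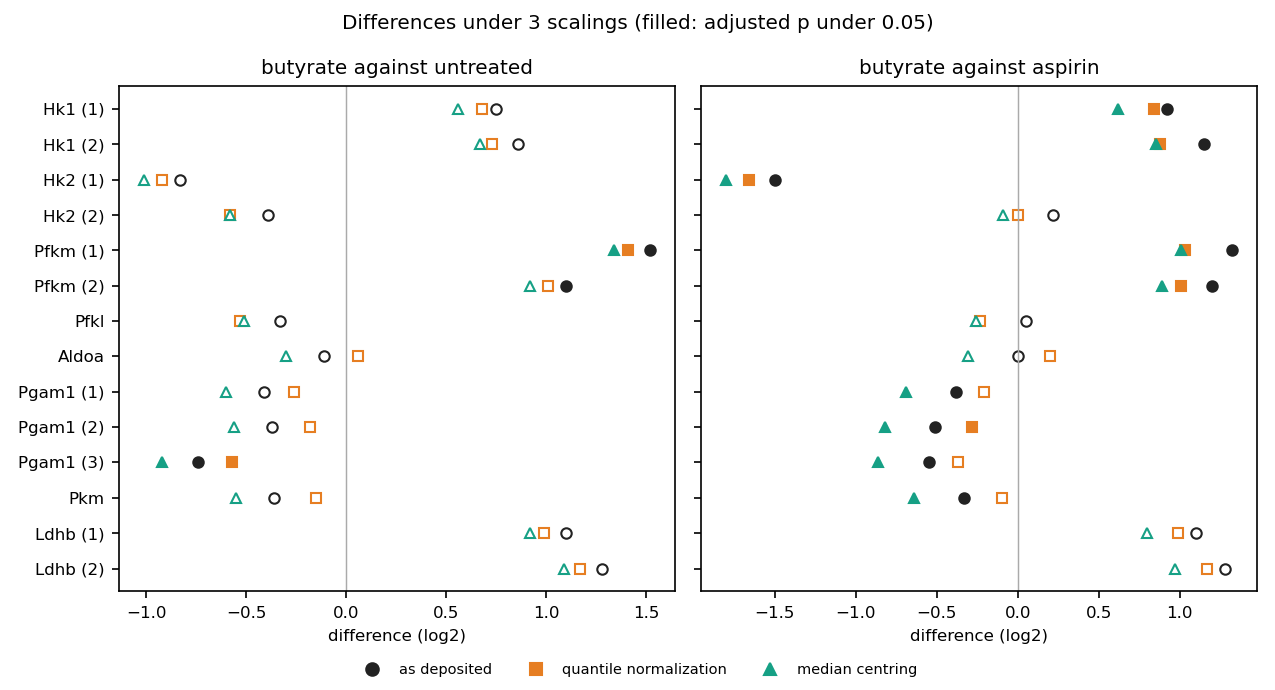
Differences in log2 intensity of the 14 probe sets for butyrate against untreated (left) and butyrate against aspirin (right), with the values as deposited (circles), after quantile normalization (squares) and after median centring (triangles). Filled symbols have a limma adjusted p under 0.05. Hk1 and Pfkm stay right of 0 in both panels, while Aldoa changes side and Pkm and Pgam1 shift with the scaling.

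Ldhb differed between the treatments by 1.10 ± 0.47 and 1.28 ± 0.55 (limma adjusted p = 0.134 and 0.14), an average over hours at which it was at the floor in both. By hour the differences on U07181_at were 0 at 2 and 6 h and at least 0.72, 1.89 and 2.91 at 12, 16 and 24 h. With the floor removed or lowered to 4.2 both probe sets were called (lowest adjusted p 0.0271 and 0.0429), so this call depends on the floor.

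The rest of the pathway was followed through 10 lists of genes around glycolysis, each gene by its brightest probe set. Of 65 tested genes 12 were called by limma for butyrate against untreated (10 rose, 2 fell), where 11.7% of all tested probe sets were (7.78% higher and 3.92% lower). Pc, Max and Adm, counted among those that rose, passed the filter only through their butyrate arrays. The values that make these calls thus also selected them, so the count is no independent result about the lists. For aspirin against untreated limma called 0 of the 65 (0.147% of all probe sets), and 9 had an unadjusted p under 0.05 (10.7% of all). For butyrate against aspirin 22 were called (18 higher, 4 lower), against 25.2% of all (15.6% higher and 9.61% lower). Of the 12, 11 remained called after quantile normalization and 8 after median centring. Of the 22, 14 and 13 did.

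The other glycolysis enzymes gave 0 calls among 5 tested genes against untreated, with a median of -0.01. Enolase 1, Eno1, the step after Pgam1, read 24616 and 24670 untreated and 22844, 19272, 16633, 16574 and 16439 with butyrate on X02610_at. It was thus below untreated on every butyrate array, as Pgam1 was, at -0.44 ± 0.14 (limma adjusted p = 0.0592), and on its brighter probe set, X02610_g_at, at -0.36 ± 0.11 (0.0507). Against aspirin X02610_at was called (-0.41 ± 0.06, limma adjusted p = 0.00916) and X02610_g_at was not (-0.20 ± 0.06, 0.06). After quantile normalization X02610_g_at read -0.15 against untreated and 0.03 against aspirin (limma adjusted p = 0.39 and 0.812). After median centring it read -0.54 and -0.5 (0.0409 and 0.00431), so its difference depends on the scaling. Phosphoglycerate kinase, Pgk1, read -0.41, -0.17 and 0.22 on its 3 probe sets against untreated, none called. Gapdh had only control probe sets, which differed by -0.26 ± 0.06, -0.25 ± 0.05 and -0.22 ± 0.07 between butyrate and aspirin (3′, middle and 5′, limma adjusted p = 0.0234, 0.024 and 0.0697). Between these treatments the median of the 319 bright probe sets was -0.22. The part of this common shift in the Gapdh and Eno1 differences was not tested. Aldoc, the brain-type aldolase, was higher with butyrate than with aspirin (1.25 ± 0.29, limma adjusted p = 0.0277), and this call was lost in each of the 10 fits that left out an array. The platelet-type subunit Pfkp read 0.25 and 0.26 against untreated on its 2 probe sets, not called.

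**Figure D5:**
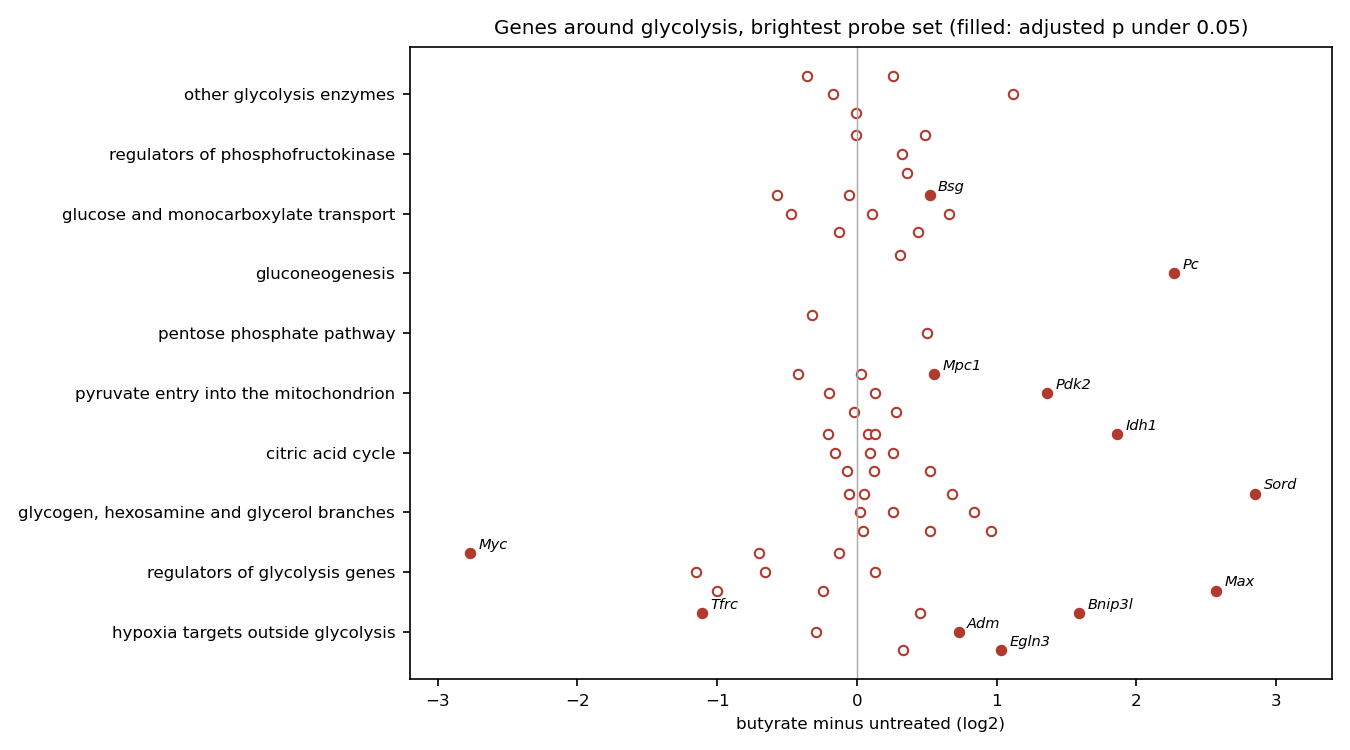
Difference in log2 intensity between butyrate and untreated for the tested genes of 10 lists around glycolysis, 1 point per gene at its brightest probe set, spread vertically only for legibility. Filled, named points have a limma adjusted p under 0.05: 12 of 65, of which Myc and Tfrc fell and 10 rose. Among those that rose, Pc, Max and Adm passed the filter only through their butyrate arrays.

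Around the committed step, the 4 tested regulators of phosphofructokinase gave 0 calls against untreated. Against aspirin Pfkfb3 and Pfkfb4, bifunctional enzymes that set the level of its activator fructose 2,6-bisphosphate, were higher with butyrate (at least 0.71 ± 0.20, with 3 aspirin arrays at the floor, and 0.59 ± 0.15, limma adjusted p = 0.0472 and 0.0358), neither of them after quantile normalization or median centring. In the transport list 1 of 8 rose against untreated, Bsg, the chaperone of the monocarboxylate carriers (0.52 ± 0.16, limma adjusted p = 0.048). The main glucose carrier Slc2a1 was not called there on either probe set (0.69 ± 0.30 and 0.44 ± 0.29, limma adjusted p = 0.15 and 0.356), and against aspirin only on its dimmer one (0.90 ± 0.24, 0.041). Slc2a4 was the 1 of 8 higher than with aspirin (1.30 ± 0.34, 0.0381).

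Where pyruvate leaves glycolysis, 2 of 8 genes rose against untreated, where 7.78% of all tested probe sets were called higher. Pdk2, a kinase that switches pyruvate dehydrogenase off, read 218 and 288 untreated, 399, 585, 841, 882 and 637 with butyrate and 168, 213, 238, 371 and 421 with aspirin. All its butyrate arrays were above both untreated arrays, at 1.36 ± 0.41 (limma adjusted p = 0.0488), while its other probe set was not called (1.96 ± 0.75, 0.105). Mpc1, part of the carrier that takes pyruvate into the mitochondrion, rose by 0.55 ± 0.16 (0.0447). Both calls were weak: Pdk2 stayed called in 3 and Mpc1 in 1 of 12 fits that left out an array, and Bsg in 1.

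Pyruvate carboxylase, Pc, which makes oxaloacetate from pyruvate, was 1 of 2 gluconeogenesis genes tested. On U32314_g_at both untreated and all 5 aspirin arrays were at the floor, and the butyrate arrays read 128, 423, 911, 722 and 457 at 2, 6, 12, 16 and 24 h. The peak at 12 h came before that of Ldhb, and the rise was at least 2.27 ± 0.53 (limma adjusted p = 0.0178), called in 9 of 12 fits that left out an array. This probe set passed the filter only through its butyrate arrays, the group found high, which limits what its p-value can show. Sorbitol dehydrogenase, Sord, which makes fructose from sorbitol, read 95.1 and 202 untreated, 558, 777, 1275, 1583 and 1127 with butyrate and 171, 153, 244, 334 and 260 with aspirin on rc_AI030175_s_at. It rose by 2.85 ± 0.45 (limma adjusted p = 0.00237), was higher than with aspirin by 2.16 ± 0.18 (0.00461), and kept the first call in all 12 fits that left out an array. It was the 1 call among 10 genes of the glycogen, hexosamine and glycerol branches against untreated. Against aspirin the glycogen phosphorylase gene Pygb was also higher (0.72 ± 0.10, limma adjusted p = 0.00851), and against untreated 1 of its 3 probe sets, not the brightest, was called (1.03 ± 0.29, 0.0389).

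In the citric acid cycle 1 of 10 genes was called against untreated, Idh1, the cytosolic isocitrate dehydrogenase (1.86 ± 0.45, limma adjusted p = 0.0194). Its untreated arrays read 558 and 2690, far apart, and the call stayed in 8 of 12 fits that left out an array (highest adjusted p 0.255). Against aspirin 4 of 10 were higher, where 15.6% of all tested probe sets were called higher. Among them Cs, for citrate synthase, differed by 1.30 ± 0.13 (limma adjusted p = 0.00545) and stayed called in all 10 fits that left out an array. Of 2 pentose phosphate genes 0 were called in either comparison.

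Among 9 regulators of glycolysis genes, Myc fell and its partner Max rose with butyrate, at -2.77 ± 0.33 and at least 2.57 ± 0.39 on their brightest probe sets (limma adjusted p = 0.000407 and 0.00187), the other Max probe set not being called (0.67 ± 0.34, 0.215). The brighter Max probe set was at the floor on all untreated and aspirin arrays. It passed the filter, and was the brighter one, only through its butyrate arrays, the group found high. Hif1a, the oxygen-sensing factor, read -0.13 ± 0.45 (interval -1.10 to 0.84, adjusted p = 0.894). Of 7 hypoxia targets outside glycolysis, 3 rose (Bnip3l 1.59 ± 0.32, Egln3 1.03 ± 0.25 and Adm at least 0.73 ± 0.19, limma adjusted p = 0.00903, 0.0209 and 0.0255) and the transferrin receptor gene Tfrc fell (-1.11 ± 0.33, 0.0434). Over all tested probe sets 7.78% were called higher and 3.92% lower. With 1 array left out at a time, Bnip3l stayed called in 11, Adm in 10, Egln3 in 9 and Tfrc in 4 of 12 fits. Adm was at the floor on both untreated arrays and on all aspirin arrays but that of 16 h (97.9). Like Max, it passed the filter only through its butyrate arrays. The Adm call was also lost after quantile normalization (0.58, limma adjusted p = 0.0526) and after median centring (0.55, 0.0822). The beta-actin gene Actb, often used as a constant, read -0.35 ± 0.09 against untreated (limma adjusted p = 0.0292). The median of the 319 bright probe sets in this comparison was -0.18, and its part in the Actb difference was not tested.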

How the data were processed

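Gene expression was measured in CC531 cells on 12 arrays, and the intensity values used here were deposited by the authors, already scaled, as the near-equal trimmed means show. The unit was read from the values. Which software and scaling target were used is not given in the sources used here. Symbols came from the platform annotation: 7006 probe sets named 1 gene, 308 several and 1426 none, with 59 controls apart. No pair of arrays shared more than 0.114% of its values. Values under 90.91, the absolute value of the 10th percentile (which is negative), were raised to it and log2 taken. The 30th percentile of the mean log2 level (6.54) served as the filter. limma 3.58.1 in R 4.3.3, tested on simulated data for each of the 6 contrasts, was fitted on all 6118 probe sets with trend, with Benjamini-Hochberg adjustment at 0.05. The simulated data had independent normal noise and no floor, so they do not check calls that rest on floor values or on the scaling. Against untreated, all arrays entered (residual df 9). Butyrate against aspirin had the hour as a block (df 4), and slopes used log2 hours (df 6). The spread in comparisons with untreated also holds changes over the hours. Named are all member probe sets, a fixed set (Hif1a, Myc, Slc2a1, Gapdh, Pgk1, Eno1, Actb) and the 5 genes most like the enzymes. Also named are the called genes of each of the 10 lists with the largest change (up to 4 against untreated, up to 2 for butyrate against aspirin). Slopes of list genes, some of which were called, are not given. Members and lists were chosen with earlier results of these data known. Pfkp and the dimmer probe sets of list genes were added after their values were seen. Alternatives were other floors, filters, scalings, variance and time models, and each array left out. Testing the control probe sets and the brightness limit of 10000 were chosen after seeing the data. The pair of Ldha and Ldhb was not analysed here. Promoters came from RefSeq (GRCr8).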

Additional observations from a re-analysis of the deposited data

Results flagged for a closer look

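Within the 5 arrays of a treatment, 3 of 32 groups had 1 array whose gap to its neighbour, divided by the range of the group, exceeded 0.71. For 5 replicates chance gives about 1 in 20. The arrays here are different hours, with some values tied at the floor, so that rate does not carry over and the flags are descriptive. Gap and range were taken on log2 values with the floor applied, while the readings below are intensities. For Pfkl the 24 h aspirin array read 411.2 against 600 to 685.8 on the others (0.739). For Aldoa the 12 h aspirin array read 15850 against 17568 to 18303 (0.715). For the 5′ control probe set of Hk1 the 16 h aspirin array read 118.3 against 38.1 to 97.3 (0.742), 2 of them under the floor. This last flag depends on raising those values to the floor.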

How the results depend on the processing

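The labels carry hours and no replicate numbers, so arrays were paired by hour alone: butyrate against aspirin had 1540 calls with the hour as a block and 1535 without it. Without a filter the probe sets called among all tested numbered 358 for butyrate against untreated (716 as reported), 778 for butyrate against aspirin, 329 for the butyrate slope (550) and 37 for the difference of slopes (106). Time as a factor gave 317 calls for butyrate against untreated, and the 2 and 24 h arrays alone gave 0. For aspirin against untreated (9) the count was 17 with the floor at 182.2, 5 without a variance trend, and 0 without a floor, after quantile normalization, after median centring, with the filter at the 50th percentile, with time as a factor and with the 2 and 24 h arrays alone. The aspirin slope (101) gave 276 with the floor at 4.2, 229 without a floor, 258 after median centring, 246 with the stricter filter and 230 over plain hours. The difference of slopes gave 167 with the stricter filter and 70 over plain hours. Of called slopes 53.3% rose with butyrate and 80.2% with aspirin, against 38.2% and 32.2% after median centring and 48.7% and 60.5% after quantile normalization.

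With 1 array left out at a time the counts ran from 310 (without butyrate 16 h) to 1166 (without butyrate 2 h) for butyrate against untreated, from 1 to 306 (without untreated 24 h) for aspirin against untreated, from 241 (without butyrate 16 h) to 1645 for butyrate against aspirin, from 81 (without butyrate 2 h) to 541 for the butyrate slope, from 6 to 231 for the aspirin slope and from 3 to 119 for their difference.

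Signs turned only among values that were not called. Against untreated, Aldoa with butyrate read 0.06 after quantile normalization and 0.02 with the 2 and 24 h arrays alone. With aspirin, median centring gave 0.09 for Pkm, 0.01 for Aldoa, 0.09 for Pgam1 (rc_AI169417_s_at) and 0.03 for Pfkm (U25651_at), time as a factor 0.09 for Pkm and 0.06 for the same Pgam1, and the 2 and 24 h arrays alone 0.10 and 0.02. Butyrate against aspirin gave -0.23, -0.26 and -0.01 for Pfkl after quantile normalization, after median centring and from the late arrays alone, and -0.09 and -0.08 for Hk2 (M68971_at) after median centring and from the late arrays.

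Leaving out 1 array turned the sign of aspirin against untreated for Hk2 on D26393exon_s_at (-0.14 to 1.48), Hk1 (-0.42 to 0.06 and -0.99 to 0.40), Pfkm (-0.01 to 0.44 and -0.20 to 0.03) and Pkm (-0.07 to 0.02), and of Pfkl for butyrate against aspirin (-0.09 to 0.15). It turned the butyrate slope of Pkm (-0.10 to 0.02), Aldoa (-0.07 to 0.11) and Hk1 (-0.05 to 0.16 and -0.25 to 0.09), and the slope difference of Pfkm on D21869_s_at (-0.44 to 0.14). The causes of these changes were not tested. Over all alternatives and member results, 1201 values kept direction and side of the threshold, 92 lost and 19 gained a call.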

Other observations

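The genes whose levels over the 12 arrays were most like the mean course of the enzymes, among 3534 candidates, were Eif2s3 (r = 0.917), Cox4i2 (0.913), Lig4 (0.911), Stx1a (0.908) and Exoc6 (0.904). These are descriptions over arrays that share their treatments. The mean course, each probe set centred on its own mean log2 level, was 0.05 and -0.08 on the untreated arrays, 0.08, 0.07, 0.08, 0.27 and 0.40 with butyrate at 2, 6, 12, 16 and 24 h, and -0.25, -0.18, -0.14, -0.04 and -0.26 with aspirin. It holds the brightest probe set of each enzyme. At 24 h of butyrate these differed from the untreated mean by 3.53 (Ldhb), 1.49 (Pfkm), 0.30 (Hk1), 0.00 (Aldoa), -0.31 (Pkm), -0.41 (Pgam1), -0.59 (Pfkl) and -0.64 (Hk2). The late rise of the mean thus rests largely on Ldhb leaving the floor and is not a rise of the enzymes together. The 5 genes were picked by their likeness to this mean.

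Marker genes of other tissues were summed because Pfkm is the muscle-type subunit. For the 8 of 10 skeletal muscle genes on the array, 2 of them at the floor on all arrays, the sum was 1829 and 1918 untreated, 2254 to 2960 with butyrate and 1575 to 3677 with aspirin, and none was called for butyrate against untreated or aspirin. The sum of hepatocyte genes was 1103 and 1351, 1078 to 3736 and 859.8 to 1476, that of fibroblast and smooth muscle genes 6320 and 6752, 5461 to 7653 and 3249 to 5894. Endothelial genes summed to 790.8 and 905.4 untreated, 457.4 to 573.9 with butyrate and 471.8 to 695.6 with aspirin, and blood and immune genes to 711.7 and 1515, 724.1 to 1999 and 552.5 to 1232. Epithelial genes summed to 92040 and 108000, 81150 to 97340 and 90300 to 101500. The part of these levels in the enzyme differences was not tested.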
